A study of Caenorhabditis elegans with 2 samples.

Results

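The genes described here are 10 components of the C. elegans Sma/Mab branch of TGF-beta signalling, and the measurement is where EFL-3, an E2F family protein carrying a GFP tag, gave peaks in and around them. The members are dbl-1, lon-2, sma-10, daf-4, sma-6, sma-2, sma-3, sma-4, sma-9 and lon-1, which are 10 of the 19973 protein-coding nuclear genes in the annotation. The set was selected on the pooled EFL-3 peak signals at these genes, with the strong sma-9 peak already known, so signal values and counts over the members are descriptions and carry no test. For each gene the window was the gene body plus 5000 bp upstream, and all peak summits in it were collected.

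In this pathway a BMP-like ligand, DBL-1, is released mainly by neurons and acts on the epidermis, where it sets body length. It binds a pair of serine/threonine kinase receptors, which activate Smad proteins that enter the nucleus and change transcription together with cofactors such as SMA-9. Loss of signalling gives small worms, from which the sma names come, and excess signalling or loss of an inhibitor gives long worms, the lon genes. EFL-3 is an atypical E2F protein, of a family known for control of cell cycle genes.

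Chromatin immunoprecipitation with sequencing was done with an antibody against GFP on whole L1 larvae of strain OP344, which carries unc-119(tm4063) and the transgene wgIs344, a fusion of F49E12.6 (efl-3) to TY1, EGFP and 3xFLAG with unc-119(+). The worms were of mixed sex, 6 hours old and starved as L1 after bleaching, and both of the 2 biological replicates share this genotype and treatment, so there is 1 group and no comparison of conditions. Whole larvae were used, so a peak cannot be assigned to a tissue, and the tagged protein comes from a transgene. The labels do not say whether the endogenous efl-3 was intact. The data are 3 relaxed lists of 30000 peaks each, from the pooled reads and from each replicate, and a reproducible set of 430 peaks, which are the 430 strongest of the pooled list. The signal value of a peak is the value deposited by the authors, has no stated unit and is compared only within its own list. Read depth is unknown from these lists.

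A single member had a reproducible EFL-3 summit, and that was sma-9. Its signal was 107 in the pooled list (rank 321), and the weakest reproducible peak had 94.8. The strongest member summit outside the reproducible set was upstream of sma-2, with a signal of 86.7 (rank 568). Over all protein-coding genes 3.92% had a reproducible summit in the same kind of window. The sma-9 window is long, and among the 512 genes with a window at least as long 8.98% had one. A count of 1 gene is the lowest above 0 that 10 genes can give, so it is a fact about sma-9 and not about the pathway.

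Below that threshold the counts over all members were close to those over all genes. A relaxed pooled summit was present for 9 of the 10 genes, against 85.3% of all genes, and dbl-1 was the gene without one. The members' windows held 34 relaxed summits in 109589 bp, or 3.10 per 10 kb, and the genome held 2.99 per 10 kb. By chromosome the values differed in both directions. The 5 members on chromosome III had 2.99 summits per 10 kb against 3.69 for the whole chromosome. The 2 on X, sma-9 and lon-2, had 4.14 against 2.80. Chromosomes II, IV and V have 1 member each. The values were 1.27 against 2.85 on II, 3.80 against 2.83 on IV, and 0 against 2.65 on V. The median over members of the strongest signal in the window was 48.2, and over all genes it was 46.2. These medians are not matched for window length. The median window was 9748.5 bp for members and 7027 bp for all genes. Of the 34 summits, 20 lay above the pooled list's median signal of 41.6. The deposited pooled q-value was 0.0827 at the reproducible sma-9 summit and ran from 0.32 to 0.929 at the other 33.

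**Figure D1:**
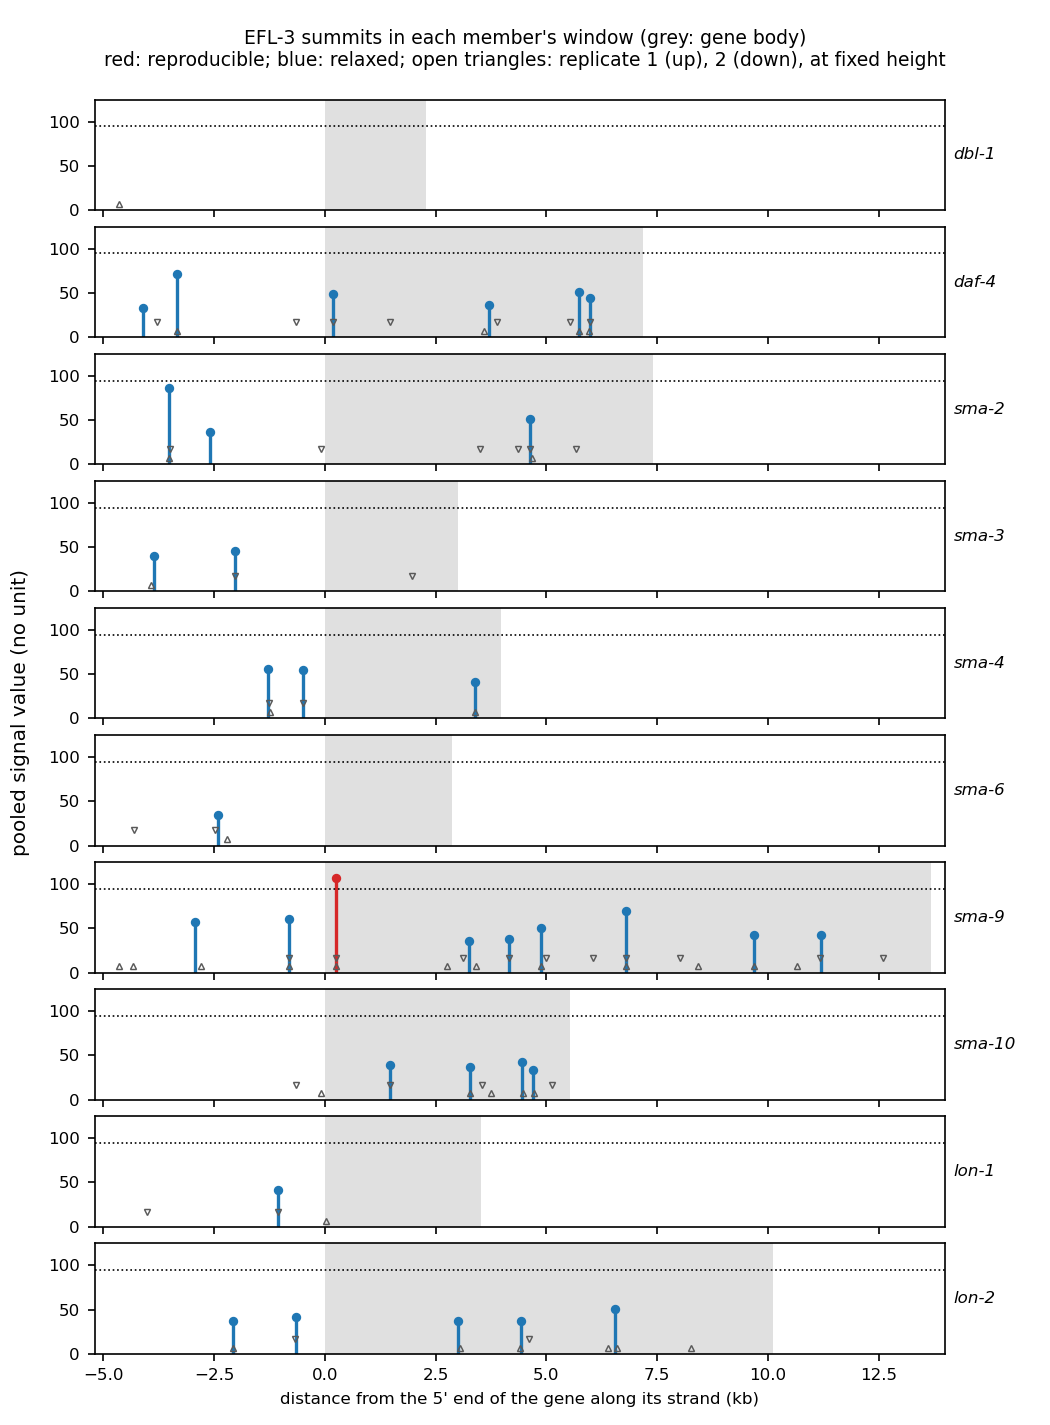
Pooled EFL-3 summits in the window of each member, by distance from the 5' end of the gene in kb (x axis) and pooled signal value (y axis, no unit). The red stem is the reproducible sma-9 summit at 107, the only one above the dotted line at 94.8, the weakest reproducible signal. Blue stems are relaxed summits, grey marks the gene body, and open triangles mark replicate summits at a fixed height that carries no value.

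The ligand gene dbl-1 lies at chrV:6758135-6760418 on the forward strand. It had no pooled summit and no summit of replicate 2 in its window of 7284 bp. Replicate 1 had a single summit there, 4649 bp upstream, with a signal of 19.9 and rank 25276, close to the lowest signal of that list, 18.4. Windows of this size often hold few summits, and the median over all genes was 2 for a median window of 7027 bp.

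Of the proteins that act on the ligand outside the cell, the glypican LON-2 binds DBL-1 and limits signalling, and SMA-10, a transmembrane protein of the LRIG family, promotes it. The lon-2 gene, at chrX:4738964-4749083 on the reverse strand, had 5 pooled summits, 3 of them in introns and 2 upstream. The strongest was in an intron 6556 bp from the gene's 5' end, with a signal of 51.1 (rank 6656) and rank 3589 in replicate 1. Replicate 2 had no summit within 100 bp of it. None of the 5 lon-2 summits was matched in both replicates, since 4 were matched in replicate 1 alone and 1 in replicate 2 alone. The sma-10 gene, at chrIV:274420-279943 on the forward strand, had 4 pooled summits, all within the gene body. Their signals ran from 33.2 to 42.0. The strongest, in an intron 4443 bp from the gene's 5' end, had pooled rank 14477 and rank 6467 in replicate 1, with no match in replicate 2. No sma-10 summit was matched in both replicates.

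The receptor genes differed from each other in the number and strength of their summits. DAF-4, the type II receptor, also serves the dauer branch of TGF-beta signalling, whereas SMA-6 is the type I receptor of the Sma/Mab branch. At daf-4 (chrIII:5625135-5632323, forward strand) there were 6 pooled summits, with the strongest 3331 bp upstream in intergenic sequence. Its pooled signal was 71.2 (rank 1280), with a pooled q-value of 0.68. In replicate 1 the matching peak had a signal of 56.3 and rank 384, among the 430 strongest of that replicate, with a deposited q-value of 0.0795. In replicate 2 there was no summit within 100 bp.

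The daf-4 summit nearest to an annotated start showed the reverse. It lay 47 bp upstream of one of the 6 annotated daf-4 starts, 179 bp into the gene body, with a pooled signal of 48.4 (rank 8443). It ranked 1625 in replicate 2 and had no match in replicate 1. The one daf-4 summit found in both replicates was in a coding exon, 5989 bp from the 5' end of the gene, with a pooled signal of 44.8. It ranked 20673 in replicate 1 and 10631 in replicate 2. For sma-6 (chrII:6324484-6327355, forward strand) the single pooled summit had a signal of 34.1 (rank 26654), near the lowest signal of the list, 32.5. It lay 2411 bp upstream, inside a coding exon of C32D5.4, and the nearest start was that of efr-3. It ranked 26844 in replicate 2 and had no match in replicate 1.

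The Smad genes all lie on chromosome III. SMA-2 and SMA-3 are receptor-regulated Smads and SMA-4 is their common partner. The strongest summit of the Smad genes was that of sma-2 (gene body chrIII:8749680-8757089, forward strand), 3518 bp upstream. Its pooled signal was 86.7 with a q-value of 0.32, and its signals in the replicates were 40.5 (rank 1475) and 41.5 (rank 981). None of the other 6 member summits found in both replicates ranked this high in each of them, although it was in the 430 strongest of neither. Other genes are nearer to it, the start of ZK370.6 being 2316 bp away, and the window of pdhk-2 also holds it.

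Another sma-2 summit found in both replicates had a pooled signal of 51.05 (rank 6687) and lay within the long annotated body of sma-2, but it falls in a coding exon of tomm-70, a gene for a mitochondrial import receptor that lies inside a sma-2 intron on the other strand. It was 440 bp from the tomm-70 start and 582 bp upstream of one of the 3 annotated sma-2 starts. Under a rule that assigned a summit by its nearest transcript start alone, sma-2 had none. With 10000 bp upstream, the sma-2 window also took in a reproducible peak 8045 bp upstream (signal 131, rank 267 in replicate 1 and 190 in replicate 2), whose nearest start, 223 bp away, was that of pdhk-2.

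At sma-3 (chrIII:6860974-6863968, reverse strand) the pooled summits numbered 2, both upstream in coding exons of the neighbouring gene cra-1. The stronger, 2027 bp upstream, had a signal of 45.3 (rank 11021), ranked 7402 in replicate 2 and was not matched in replicate 1. At sma-4 (chrIII:5816232-5820204, forward strand) there were 3. The strongest had a signal of 56.2 (rank 4188), and it ranked 5770 in replicate 1 and 10975 in replicate 2. It lay 1273 bp upstream of sma-4 and 86 bp upstream of the start of R12B2.7. A summit 486 bp upstream of the sma-4 start had a pooled signal of 54.5 (rank 4899) and ranked 2093 in replicate 2, with no match in replicate 1.

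SMA-9 is the worm relative of Schnurri, a large zinc finger protein that works with Smads in the nucleus, and it acts in body size, in the male tail and in the postembryonic mesoderm. The gene lies at chrX:10769282-10782973 on the forward strand and has 16 annotated transcripts with 6 different starts. Its reproducible summit, at 10769527, was in an intron 245 bp from the first base of the gene. Only 3 of the 16 transcripts begin upstream of it, 2 of them 245 bp and 1 of them 239 bp away. The start used by the most transcripts, 10 of 16, is 3564 bp downstream of the summit.

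The sma-9 summit ranked much higher in one replicate than in the other. In replicate 1 its signal was 65.4 (rank 269) with a deposited q-value of 0.0242. In replicate 2 its signal was 31.0 (rank 4785) with a deposited q-value of 0.729. The pooled q-value was 0.0827. Replicate 2 thus placed a summit within 1 bp of the pooled one, but lower in its list, and the peak was among the 430 strongest of replicate 1 and not of replicate 2.

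The sma-9 window held 8 further pooled summits. The strongest of these, 6795 bp from the gene's 5' end, is in a coding exon of some transcripts and in an untranslated region of another. It had a pooled signal of 69.9 (rank 1404) and the opposite balance, with rank 22944 in replicate 1 and 2008 in replicate 2. The next was 820 bp upstream, with a pooled signal of 60.3 (rank 2912). It ranked 7947 in replicate 1 and 11657 in replicate 2. A summit 2932 bp upstream had a pooled signal of 57.1 (rank 3847) and no replicate summit within 100 bp, although replicate 1 had a summit of rank 1122 at 2806 bp upstream. In all, 3 of the 9 sma-9 summits were matched in both replicates, 2 in replicate 1 alone, 2 in replicate 2 alone and 2 in neither.

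The sma-9 window held many summits and is also long. Of all genes, 97.8% had fewer pooled summits than sma-9, and 97.4% had a shorter window than its 18692 bp. Among the 77 genes with a window of 18 to 19 kb, the median was 6 summits and the 90th percentile 12. The strongest signal of sma-9 was above that of 96.9% of all genes in the pooled list. The same share was 97.4% in replicate 1 and 85.5% in replicate 2, where the strongest sma-9 summit was the one in the coding exon.

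**Figure D2:**
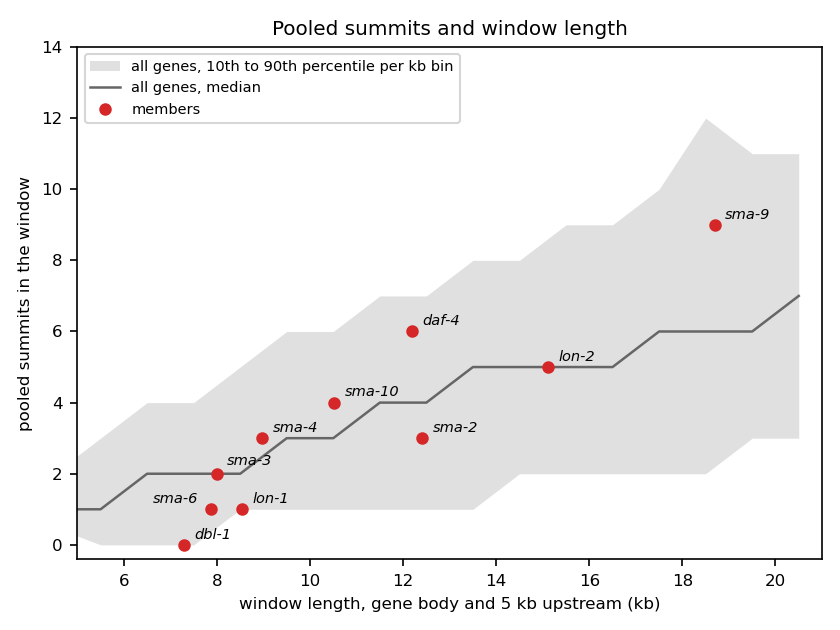
Number of pooled summits in the window (y axis) against the length of the window in kb (x axis) for the 10 members, in red, with the median (line) and the 10th to 90th percentile (grey) of all protein-coding genes in bins of 1 kb. All 10 members lie within the grey band or at its edge, from dbl-1 with 0 summits to sma-9 with 9.

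The sequences that follow, in ce11 coordinates and on the forward strand, are those of the 4 strongest member summits that were found in both replicates and do not lie in an annotated untranslated region. They run 75 bases to either side of the summit, and the sma-2 stretch is cut short where the annotated untranslated end of ugtp-1 begins. The sma-9 summit with a pooled signal of 69.9 is left out because it lies in an untranslated region of 1 transcript. Capitals mark the short Smad-binding word GTCT, or AGAC on the other strand. The stretches shown are the reproducible sma-9 summit (chrX:10769452-10769602), the sma-9 summit 820 bp upstream (chrX:10768387-10768537), the sma-2 summit (chrIII:8746087-8746215) and the sma-4 summit nearest to R12B2.7 (chrIII:5814884-5815034).
sma-9 intronic summit: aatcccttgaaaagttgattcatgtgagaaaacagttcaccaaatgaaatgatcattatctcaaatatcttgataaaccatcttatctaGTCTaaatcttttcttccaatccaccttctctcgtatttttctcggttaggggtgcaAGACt
sma-9 upstream summit: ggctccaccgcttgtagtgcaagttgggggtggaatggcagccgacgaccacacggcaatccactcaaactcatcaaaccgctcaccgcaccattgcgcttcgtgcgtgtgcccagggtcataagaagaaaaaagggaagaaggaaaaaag
sma-2 upstream summit: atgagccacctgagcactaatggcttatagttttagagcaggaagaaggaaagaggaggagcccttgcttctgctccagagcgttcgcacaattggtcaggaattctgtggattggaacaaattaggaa
sma-4 upstream summit: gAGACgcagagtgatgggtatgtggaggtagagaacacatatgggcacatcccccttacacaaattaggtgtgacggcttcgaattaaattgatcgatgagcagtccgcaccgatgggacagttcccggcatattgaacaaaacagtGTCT

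The intronic sma-9 stretch is rich in A and T, with a GC content of 34.8% within 100 bp of the summit, and the upstream one has 52.2%, the highest of the 34 member summits. Over the members the median GC content was 40.8%, and over all pooled summits it was 40.3%. The word GTCT, which Smad proteins bind, was present within 100 bp of 25 of the 34 member summits (73.5%) and of 65.8% of all pooled summits. The Smad palindrome GTCTAGAC was found at none of the 34, and at 0.163% of pooled summits.

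The E2F consensus, counted as any of TTTCCCGC, TTTCGCGC, TTTGCCGC or TTTGGCGC on either strand, was within 100 bp of none of the 34 member summits. A count of 0 of 34 allows a share of up to 8.82%, and the share was 4.15% of all pooled summits and 7.4% of the reproducible ones, so no difference was detectable with this number. The letters TTTGAA of the CHR element, which DREAM complexes bind, were at 8 member summits (23.5%) and at 37.5% of pooled summits. One of the 8 was the reproducible sma-9 summit, where they lie 84 bp downstream of the summit, on the reverse strand and outside the stretch shown. A GAGAGAGA repeat was at 1 member summit, in an intron of lon-2, and at 2.45% of pooled summits. These matches describe letters in a window and not binding sites.

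LON-1, a secreted protein of the CRISP family, limits body length, and its gene is known to be lowered by DBL-1 signalling. At lon-1 (chrIII:5474476-5478005, forward strand) there was 1 pooled summit, 1047 bp upstream in intergenic sequence, with a signal of 41.98 (rank 14532). It ranked 5448 in replicate 2 and had no match in replicate 1. Replicate 1 had a summit 11 bp upstream of an annotated lon-1 start instead, with a signal of 24.3 (rank 14252).

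The replicates shared a minority of the members' summits, and likewise a minority of all pooled summits. Of the 34 pooled summits, 7 (20.6%) had a summit within 100 bp in both replicates, against 24.8% of all pooled summits. A further 13 were matched in replicate 1 alone, 9 in replicate 2 alone and 5 in neither, and the shares over all pooled summits were 31.4%, 30.5% and 13.3%. The 7 shared summits belonged to 4 genes, sma-9 with 3, sma-2 with 2, and sma-4 and daf-4 with 1 each. A shared summit was present in the window of 42.1% of all genes. With the 430 strongest peaks of replicate 1 alone, 2 members had a summit (sma-9 and daf-4), against 3.82% of all genes. With those of replicate 2 alone no member had one, against 3.64%.

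**Figure D3:**
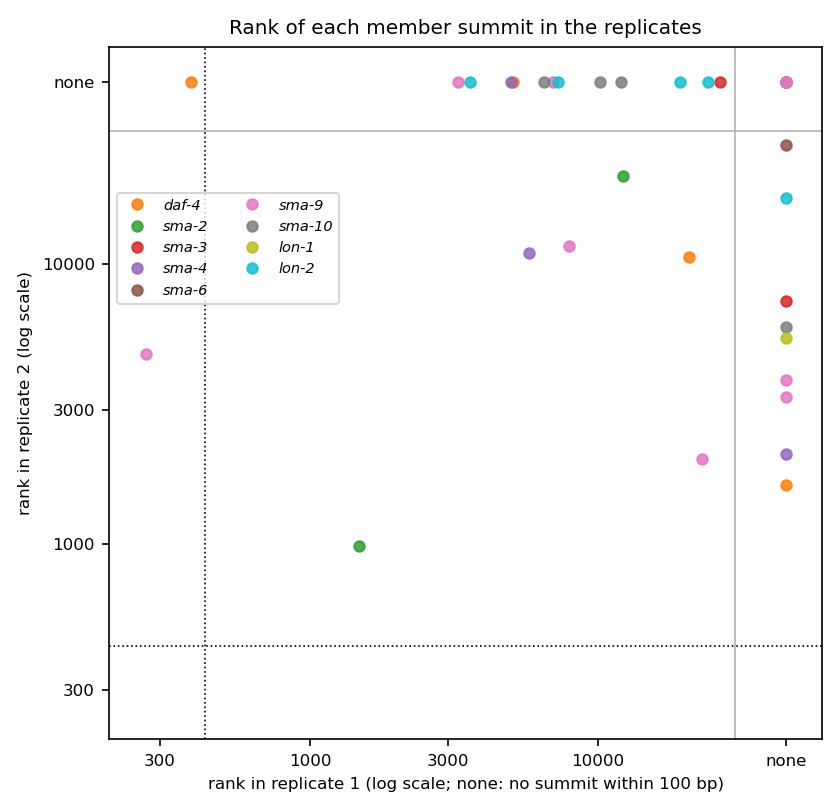
Rank of each of the 34 pooled member summits in replicate 1 (x axis) and replicate 2 (y axis), both on a log scale, coloured by gene. Dotted lines mark rank 430, grey lines mark rank 30000, and points beyond these have no summit within 100 bp (5 summits with no match in either replicate lie on each other at the upper right). The reproducible sma-9 summit is at 269 and 4785, and no point lies inside rank 430 in both replicates.

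By position, 20 of the 34 pooled summits were in gene bodies and 14 upstream. Of those in bodies, 12 were in introns and 8 in coding exons of the member. Of the upstream ones, 10 lay between protein-coding genes and 4 inside another protein-coding gene. The nearest transcript start belonged to the member for 28 of the 34. For 15 of them, another protein-coding gene's window held the same summit. None of the sma-9 or lon-2 summits was shared in this way, and every summit of sma-2, sma-3, sma-6, sma-10 and lon-1 was. These position counts are given without shares over all genes, so they describe the members only.

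Genes linked to the pathway were looked at in the same way, as 4 lists of 24 genes in all. Of 10 other parts of the Sma/Mab branch, none had a reproducible summit (3.92% of all genes) and all 10 had a relaxed one (85.3%). Their median strongest signal was 62.5, against 46.2 over all genes. Window length was not matched in this comparison. Windows in this list ran from 6437 bp (tsp-12) to 16667 bp (unc-40), and the median over all genes was 7027 bp. The highest signal in the list, 83.3 (rank 643), belonged to kin-29, which encodes a salt-inducible kinase. Its summit was 180 bp upstream of the start. It had no match in replicate 1 and rank 7331 in replicate 2.

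In the dauer branch, 1 of 6 genes had a reproducible summit, against 3.92% of all genes. This was daf-5, which encodes a Ski-like partner of the Smad DAF-3. Its summit was in an intron 1621 bp from the 5' end of the gene, with a pooled signal of 99.4 (rank 381), just above the reproducible threshold. Its signals were 53.2 (rank 458) in replicate 1 and 52.0 (rank 371) in replicate 2. The daf-5 summit was thus weaker than that of sma-9 in the pooled list but had nearly the same rank in both replicates. The daf-5 window is also longer, with 24089 bp and 15 pooled summits, 6 of them matched in both replicates. Among the 512 genes with a window at least as long as that of sma-9, 8.98% had a reproducible summit. The highest of the other 5 dauer genes was daf-14, which encodes a Smad, with a signal of 65.1 (rank 1966). The median strongest signal of the 6 dauer genes was 52.5. Window length was not matched here or for the lists that follow.

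Among the other TGF-beta family ligands none of 3 genes had a reproducible summit, against 3.92% of all genes. Their median strongest signal was 37.5. The highest signal was 68.3 for tig-3, 4491 bp upstream, with rank 439 in replicate 2 and no match in replicate 1. Of 5 other body length genes none had a reproducible summit, against the same 3.92%, and their median strongest signal was 43.3. The spectrin gene sma-1 had the highest signal, 69.1 (rank 1476).

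**Figure D4:**
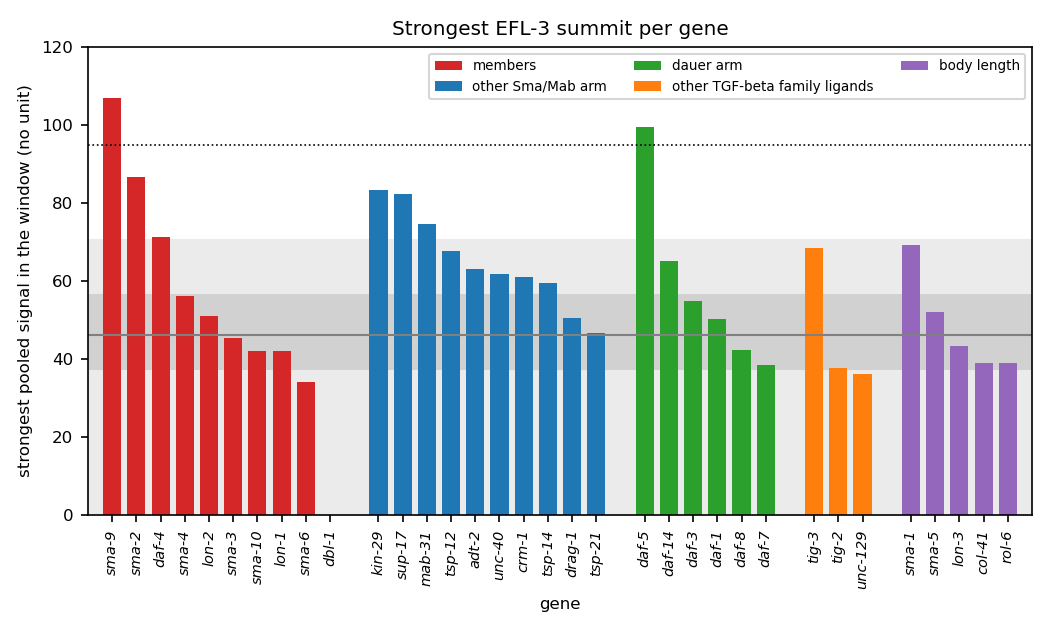
Strongest pooled signal in the window (y axis, no unit, from 0) for each member and each gene of the 4 related lists (x axis). The line marks the median of all genes, 46.2, dark grey the middle 50% of genes and light grey the 10th to 90th percentile. Only sma-9 at 107 and daf-5 at 99.4 pass the dotted line of the weakest reproducible signal, 94.8, and dbl-1 has no summit.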

How the data were processed

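Peak lists in narrowPeak format on ce11 were deposited for each replicate, for the pooled reads and for the set thresholded by the authors for reproducibility, per the labels and the deposited file descriptions. All were called against the same control. Aligner, peak caller, settings and threshold were not given in the sources used here. Each deposited signal value has no stated unit, and the deposited −log10 q-value is shown as q. Summits are the peak start plus the summit offset, written 1-based. Nearly all peaks of a list share 1 width (median 380 bp, pooled), with the summit at their centre.

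Genes came from Ensembl release 115 and sequence from RefSeq, both WBcel235, the assembly of ce11. Windows, matching within 100 bp and motif searches were done with Python 3.11.15 and pandas 2.3.3, and the window and matching code was checked on planted summits. All 10 members are named, with their strongest pooled summit and its replicate ranks. Members, lists and rules were chosen with earlier results of these data known. With 1 group no test was run, and depth is unknown. Alternatives covered windows, thresholds, matching distance and single replicates.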

Additional observations from a re-analysis of the deposited data

How the results depend on the processing

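The reproducible summit of sma-9 was found under all 6 other window rules, and the count of members with one (1) changed with the threshold. It was 0 with the stronger part of the reproducible set (2.10% of all genes), 0 with a q-value below 0.05 (2.55%), and 0 to 2 when 1 replicate was left out. With 10000 bp upstream it was 2 (5.85%), with the pdhk-2 peak added for sma-2. The 9 members with a relaxed summit became 5 with the 10000 strongest pooled peaks, where 49.3% of all genes had one. Window rules changed this count too. It was 6 with 1000 bp upstream (63.1% of all genes) and 6 in gene bodies alone (51.8%). With 2000 bp upstream it was 7 (71.4%). It was also 7 with upstream sequence cut at the neighbouring gene (63.6%) and 7 with the nearest start only (60.9%). With 10000 bp upstream it was 10 (94.0%). The 34 relaxed summits became 53 with 10000 bp upstream, 20 in gene bodies alone and 13 with the 10000 strongest peaks. The share of all genes with such a summit went from 85.3% to 94.0%, 51.8% and 49.3% in the same order. The 7 summits found in both replicates became 13 with 10000 bp upstream, 4 in gene bodies alone and 4 with the nearest start only. They became 11 when matched within 200 bp and 2 with the 10000 strongest peaks of each list. Over all genes, the share with such a summit went from 42.1% to 56.6%, 19.1%, 24.3%, 51.9% and 14% in the same order. The cause of these changes was not tested. Of 60 strongest signals recomputed under 6 window rules, 31 were equal to the reported value and 29 were not. The sma-9 value was equal under all 6 rules. The dbl-1 value stayed at 0 except with 10000 bp upstream, where it was 34.3. With 1000 bp upstream the values of sma-3, sma-6 and lon-1 were 0. Those of daf-4, sma-2 and sma-4 were 51.1, 51.05 and 54.5 under that rule, and the rest were equal. No paired analysis was possible because there is 1 group. Peak lists without read depth limit all values to ranks within a list.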
